A study of Mus musculus with 12 samples.

Results

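The enzymes of fatty acid beta-oxidation were followed in colorectal cancers of mice that had been injected into the liver. A list of 33 genes defined the members, and each was matched to the array row that carries its symbol alone. Of these, 32 had such a row among the 22180 genes of the array. Acot8 was represented by a row that it shares with another gene and was not analysed. The list holds 21 mitochondrial enzymes, 9 peroxisomal enzymes and 3 that are known in both compartments. RNA was measured on 12 arrays, 3 in each of 4 groups: tumours in healthy liver under vehicle, in healthy liver under anti-VEGF, in fatty liver under vehicle and in fatty liver under anti-VEGF. The design text gives 3 mice a group. Anti-VEGF is an antiangiogenic treatment directed at vascular endothelial growth factor, and every group carries the injected colorectal cancer. The sources used here do not give the strain or age of the mice, the tumour cell line, the way the liver was made fatty or the dose.

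Beta-oxidation shortens a fatty acyl-CoA from its carboxyl end by repeated cycles of dehydrogenation, hydration, a further dehydrogenation and cleavage by a thiolase. In mitochondria the first dehydrogenation is done by a family of acyl-CoA dehydrogenases sorted by chain length, which pass electrons through electron transfer flavoprotein to the respiratory chain. In peroxisomes, which take very long and branched chains and bile acid intermediates, it is done by acyl-CoA oxidases that yield hydrogen peroxide. The liver is a main site of both pathways, and many of their genes are known targets of the nuclear receptor PPAR alpha.

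Values are log2 expression values as deposited by the authors, so a difference of 1 is a 2-fold change. A gene was tested when at least 3 arrays read it above 4.93, the median over the table. Values under that limit were treated as background, which was not itself measured. Of the members 30 were tested. The peroxisomal genes Acox2, an oxidase of branched chains and bile acid intermediates, and Acaa1b, a thiolase, stayed below the limit on all 12 arrays. Ehhadh, the peroxisomal L-bifunctional enzyme, was above it on 5 arrays, all of fatty liver, and therefore entered the tests through the group in which it was higher. Acad10, an acyl-CoA dehydrogenase family member, was above it on 7 arrays. A difference was called at an adjusted p of 0.05 in limma over all 13286 genes tested.

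The arrays of a group were not equally alike. The SD of the difference over all tested genes was 0.163 or less between vehicle arrays 1 and 3 of either liver and among the 3 anti-VEGF arrays of healthy liver, and 0.391 to 0.636 between the other arrays of a group. The labels call the arrays biological replicates, and each was counted as 1, but p-values rest on fewer independent samples if the nearly alike arrays share a source. Xist, expressed from the inactive X chromosome of female cells, read 8.10 and 8.43 on vehicle arrays 1 and 3 of healthy liver and 10.58 and 10.45 on those of fatty liver, and was below the limit on the 8 other arrays. Vehicle array 2 of healthy liver and anti-VEGF array 3 of fatty liver lay between the livers on the first principal component. Hepatocyte markers were low throughout: of 16 genes 12 were untested, Alb and Cps1 were at most 4.07 and 4.91, and Apoa1 and Ttr were at most 5.57 and 5.71. Of 12 epithelial markers of the tumour 6 were below the limit on every array, Epcam, Krt19, Krt20 and Vil1 among them, while Krt8 lay between 9.12 and 10.82. The macrophage list had 12 of 13 genes tested, and its mean ranged from 9.44 to 10.39 and 9.29 to 9.32 in healthy liver (vehicle, anti-VEGF) and from 11.47 to 11.51 and 11.24 to 11.57 in fatty liver. In such bulk tissue, fewer cells of a type and less RNA per cell cannot be told apart.

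Promoter sequence was set beside the values for 2 genes that were higher and 2 that were lower in fatty liver in both comparisons below, to show what they share and what they lack. The 250 bases before the start site that the RefSeq promoter table gives for each gene are shown 5′ to 3′ in the gene's direction, on GRCm38.p6. For Acadl, Hadh and Hsd17b10 that site is the edge of the gene's RefSeq span, and for Acox3 it lies 53 bases inside it. Capitals mark the GC box GGGCGG and the CCAAT box, on either strand. Acox3 lies on chromosome 5, window chr5:35582784-35583033, plus strand, and Acadl on chromosome 1, window chr1:66863310-66863559, minus strand. Hadh lies on chromosome 3, window chr3:131272102-131272351, minus strand, and Hsd17b10 on the X chromosome, window chrX:152001646-152001895, plus strand.
Acox3: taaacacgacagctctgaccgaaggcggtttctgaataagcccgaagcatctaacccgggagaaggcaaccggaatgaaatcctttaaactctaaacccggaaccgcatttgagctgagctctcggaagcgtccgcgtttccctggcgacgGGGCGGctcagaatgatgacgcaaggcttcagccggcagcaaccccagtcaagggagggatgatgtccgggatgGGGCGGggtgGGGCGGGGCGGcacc
Acadl: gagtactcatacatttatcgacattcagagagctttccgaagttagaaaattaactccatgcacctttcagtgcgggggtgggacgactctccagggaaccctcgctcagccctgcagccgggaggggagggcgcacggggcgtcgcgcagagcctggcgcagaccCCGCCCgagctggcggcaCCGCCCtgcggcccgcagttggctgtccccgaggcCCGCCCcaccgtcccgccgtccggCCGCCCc
Hadh: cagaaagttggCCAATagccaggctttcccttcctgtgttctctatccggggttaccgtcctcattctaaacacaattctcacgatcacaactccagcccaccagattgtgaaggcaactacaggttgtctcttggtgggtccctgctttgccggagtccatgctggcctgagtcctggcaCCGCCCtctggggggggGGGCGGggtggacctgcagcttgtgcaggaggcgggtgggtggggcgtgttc
Hsd17b10: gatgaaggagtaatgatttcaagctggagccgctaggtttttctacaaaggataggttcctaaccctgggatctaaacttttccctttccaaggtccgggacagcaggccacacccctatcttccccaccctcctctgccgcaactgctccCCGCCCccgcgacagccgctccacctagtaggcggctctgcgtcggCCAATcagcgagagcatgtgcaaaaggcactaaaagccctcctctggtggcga

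GC boxes stood in all 4 of these stretches, 4 in Acox3, of which 3 lie inside the RefSeq span with an overlapping pair among them, and 4 in Acadl, so a GC box does not separate the genes that were higher from those that were lower. A CCAAT box stood in Hadh and Hsd17b10, but this box does not separate the members by direction either. The promoter window of Eci1, called lower in both comparisons, held none. That of Acaa1a, higher on all fatty liver arrays, held it, but its start site lies 266 bases inside the RefSeq span. Over the 27 members with a promoter window of 300 bases, which adds the 50 bases after the start, 20 held a GC box (74.1%), against 62.1% of the 10410 tested genes with a window and 35.7% of all 32851 windows. The CCAAT box was found in 13 (48.1%, against 37.9% and 37.4%). The direct repeat of AGGTCA spaced by 1 base, the form bound by PPAR with its partner RXR, was searched on both strands with up to 2 mismatches and found in Echs1 and Etfa alone, 7.41% of the members against 3.05% of tested genes and 3.86% of all windows. The element TNAAGGTCA of estrogen-related receptors and the E-box CACGTG were in 0 member windows, against 0.663% and 9.91% of tested genes. The NRF1 element, with up to 1 mismatch, stood in Acadm, Acad10, Etfb and Etfdh (14.8%, against 12.6%). In 8 of the 27 windows the start site lies inside the gene's RefSeq span, by 22 to 32971 bases. A match or its lack describes these windows and says nothing about binding.

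Under vehicle, beta-oxidation enzymes differed between tumours of fatty and of healthy liver in both directions. Of the 30 members tested 5 were called higher, Acadvl, Acadl, Acadsb, Acox3 and Scp2, and 5 lower, Acad9, Hadh, Hsd17b10, Acat1 and Eci1. These are 16.7% each, against 19.2% of all tested genes called higher, 30.4% called lower and 49.6% called either way, so the number of calls does not set the members apart. The compartments differed in balance: mitochondrial members had 3 of 21 higher and 5 lower, with a median log2 difference of -0.09, and the 6 tested peroxisomal members had 2 higher and 0 lower, with a median of 0.43. That peroxisomal median lies between Decr2 (0.32) and Ehhadh (0.53), and Ehhadh entered the tests only through fatty liver arrays. The median of all tested genes was -0.12. With Acox2 and Acaa1b included, both under the limit, the peroxisomal median was 0.30, and no test was made between the compartments.

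**Figure D1:**
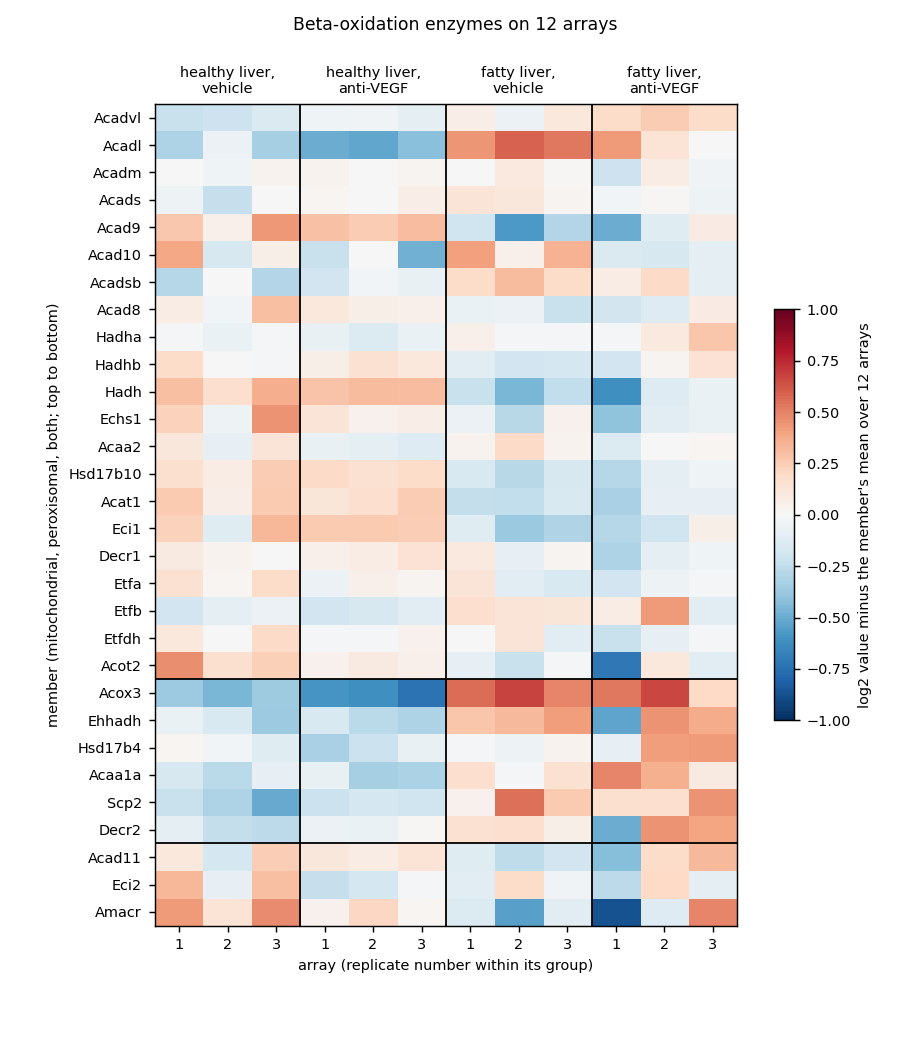
Log2 values of the 30 tested members on the 12 arrays (columns, by group), each minus the member's mean over all arrays; red is above and blue below that mean, and lines separate groups and the mitochondrial, peroxisomal and shared members. Acox3 and Acadl are high and Hadh and Acat1 low on all 6 fatty liver arrays, and anti-VEGF array 1 of fatty liver is the lowest array for Amacr and Acot2.

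Among the mitochondrial acyl-CoA dehydrogenases, Acadl, the long-chain enzyme, read 7.96, 8.21 and 7.94 on the vehicle arrays of healthy liver and 8.72, 8.86 and 8.80 on those of fatty liver. All fatty liver arrays lay above all healthy ones, and Acadl rose by 0.75 (SE 0.12, 1.69-fold, adjusted p = 0.000825). Acadvl, the very long chain enzyme bound to the inner membrane, read 6.61, 6.63 and 6.69 in healthy and 6.90, 6.78 and 6.94 in fatty liver. It rose by 0.23 (SE 0.07, adjusted p = 0.0205), a small difference whose groups did not overlap. The call on Acadvl was lost without healthy liver vehicle array 1 (0.21, adjusted p = 0.0711) or fatty liver vehicle array 1 (0.21, adjusted p = 0.0595) or 3 (0.20, adjusted p = 0.0756). The medium-chain enzyme Acadm differed by 0.04 (SE 0.08) and the short-chain enzyme Acads by 0.18 (SE 0.08, adjusted p = 0.0701), and neither was called. Acadsb, a dehydrogenase for short branched chains in isoleucine breakdown, read 7.53, 7.82 and 7.52 in healthy and 7.99, 8.12 and 7.99 in fatty liver and rose by 0.42 (SE 0.11, adjusted p = 0.00944). Acad9, a relative of Acadvl that is also needed to assemble respiratory complex I, moved the other way. Its values were 8.08, 7.86 and 8.24 in healthy and 7.61, 7.24 and 7.52 in fatty liver, a difference of -0.61 (SE 0.16, adjusted p = 0.00952), again without overlap.

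The later mitochondrial steps were either uncalled or lower. Hadh, the 3-hydroxyacyl-CoA dehydrogenase of short and medium chains, read 11.24, 11.11 and 11.31 in healthy and 10.72, 10.48 and 10.69 in fatty liver, a difference of -0.59 (SE 0.14, 0.666-fold, adjusted p = 0.00582). Hsd17b10, a dehydrogenase of branched acyl-CoA that is also part of mitochondrial RNase P, went from 8.24, 8.15 and 8.33 to 7.92, 7.80 and 7.92 (difference -0.36, SE 0.09, adjusted p = 0.00677). Acat1, the thiolase that cleaves acetoacetyl-CoA and also serves isoleucine and ketone bodies, went from 10.27, 10.08 and 10.27 to 9.78, 9.77 and 9.86 (difference -0.41, SE 0.09, adjusted p = 0.00525). In these 3 genes no fatty liver array reached the lowest healthy one. Eci1, which moves double bonds of unsaturated chains into place, read 8.56, 8.20 and 8.66 in healthy and 8.20, 7.95 and 8.02 in fatty liver. Healthy array 2 lay level with fatty array 1, so the groups overlapped, and the difference was -0.41 (SE 0.13, adjusted p = 0.0244). Its call was lost without healthy liver vehicle array 1 (-0.37, adjusted p = 0.0832) or 3 (-0.32, adjusted p = 0.0996) or fatty liver vehicle array 2 (-0.36, adjusted p = 0.0852) or 3 (-0.39, adjusted p = 0.0653).

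The trifunctional protein, which carries long chains through the 3 later reactions, was not called in either subunit: Hadha differed by 0.04 (SE 0.08) and Hadhb by -0.22 (SE 0.10, adjusted p = 0.0821). Nor were the hydratase Echs1 (-0.31, SE 0.14, adjusted p = 0.087) and the thiolase Acaa2 (0.04, SE 0.09). The electron transfer genes Etfa, Etfb and Etfdh differed by -0.16, 0.26 and -0.09, with adjusted p from 0.0925 to 0.406. The valine enzyme Acad8 (-0.23), the dienoyl reductase Decr1 (-0.03), the thioesterase Acot2 (-0.40, SE 0.18) and Acad10 (0.17) were also uncalled.

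In peroxisomes Acox3, the oxidase for branched chains, had the largest difference of the members. It read 7.58, 7.49 and 7.59 in healthy and 8.50, 8.62 and 8.43 in fatty liver and rose by 0.96 (SE 0.12, 1.95-fold, adjusted p = 0.000235). Scp2, whose locus also encodes the thiolase for branched chains, went from 7.58, 7.49 and 7.30 to 7.84, 8.35 and 8.07 and rose by 0.63 (SE 0.13, adjusted p = 0.00401). Both genes had every fatty liver array above every healthy one. The classical thiolase Acaa1a read 6.18, 6.07 and 6.26 against 6.51, 6.33 and 6.49, a difference of 0.27 (SE 0.12, adjusted p = 0.0785). Acaa1a and Acaa1b are close copies, and whether the array tells them apart was not tested. Ehhadh, with 4.89, 4.81 and 4.60 against 5.24, 5.28 and 5.38, differed by 0.53 (SE 0.21, adjusted p = 0.0596), and its healthy values are under the limit. The D-bifunctional enzyme Hsd17b4 differed by 0.04 (SE 0.13) and the reductase Decr2 by 0.32 (SE 0.20, adjusted p = 0.205). The members of both compartments were uncalled, with Amacr, the racemase that prepares branched chains and bile acid intermediates, at -0.61 (SE 0.28, adjusted p = 0.0891).

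**Figure D2:**
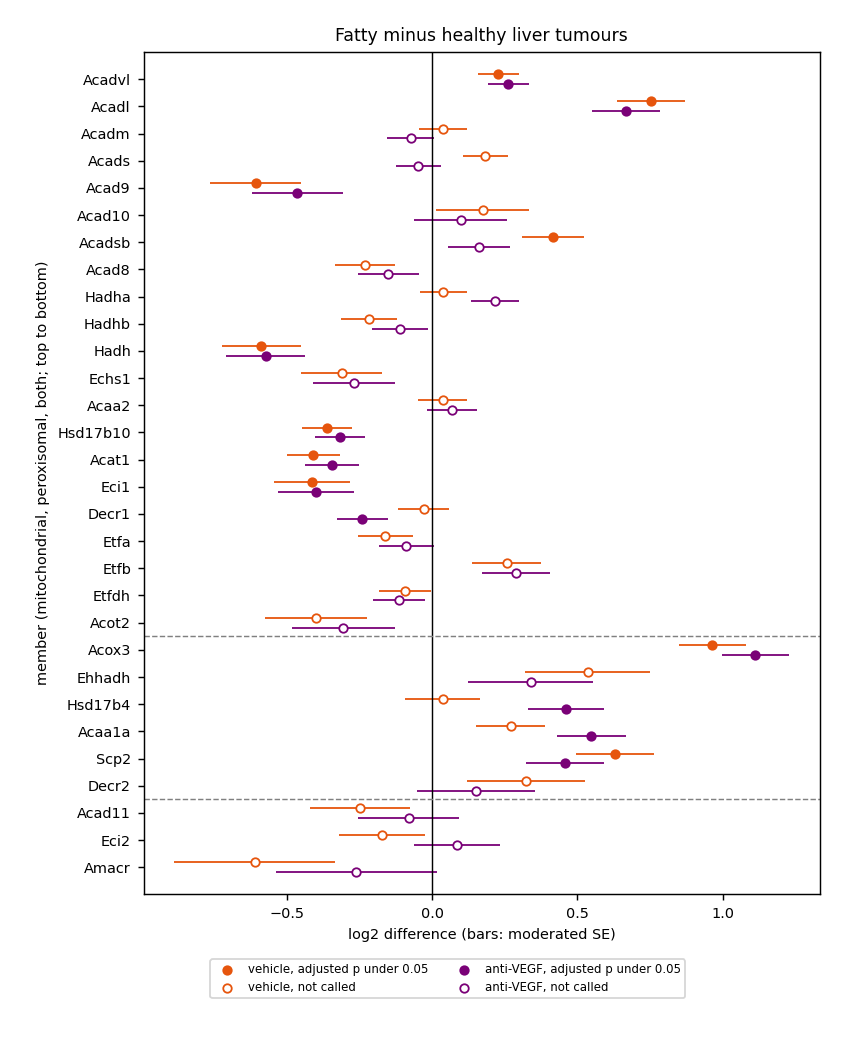
Log2 difference of fatty minus healthy liver tumours for each tested member (points) with its moderated SE (bars), under vehicle (orange) and anti-VEGF (purple); filled points were called at an adjusted p of 0.05. Acox3 lies furthest right at 0.96 and 1.11, and the called mitochondrial members lie on both sides of 0.

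Without anti-VEGF array 1 of fatty liver, which enters through the shared spread, 8 members were called lower under vehicle. The share of all tested genes called lower in that fit was 33.4%. When nearly alike arrays were averaged to 1 sample each, Acox3 remained called (1.01, adjusted p = 0.0417) and no other member was, with Acadl at an adjusted p of 0.0693 and Scp2 at 0.0767. Without the 4 vehicle arrays high in Xist, which left 1 vehicle array per liver whose spread is borrowed from the treated groups, Acox3 and Scp2 were called higher and 0 members lower.

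Under anti-VEGF the same contrast, on 6 other arrays, gave 6 members higher in fatty liver and 6 lower, 20% each, against 18.2% and 27.6% of all tested genes and 45.8% called either way. Acadvl, Acadl, Acox3 and Scp2 were called higher in both comparisons, and Acad9, Hadh, Hsd17b10, Acat1 and Eci1 lower in both. Acaa1a and Hsd17b4 were called higher and Decr1 lower under anti-VEGF but not under vehicle, and Acadsb higher under vehicle but not under anti-VEGF (0.16, SE 0.11, adjusted p = 0.236). No member was called in opposite directions. Peroxisomal members had 4 of 6 higher and 0 lower, with a median of 0.46, and mitochondrial members 2 of 21 higher and 6 lower, with a median of -0.11, around a median of all genes of -0.13. These 6 include Ehhadh, which entered the tests only through fatty liver arrays. They leave out Acox2 and Acaa1b, with anti-VEGF means of 4.28 and 4.61 in healthy and 4.27 and 4.59 in fatty liver. The compartments were not tested against each other here either.

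Acox3 read 7.35, 7.33 and 7.21 on the anti-VEGF arrays of healthy liver and 8.47, 8.61 and 8.14 on those of fatty liver, a rise of 1.11 (SE 0.12, 2.16-fold, adjusted p = 7.16e-05). Averaging nearly alike arrays left Acox3 as the single member called (adjusted p = 0.0462). Acaa1a read 6.26, 6.01 and 6.03 against 6.83, 6.69 and 6.43 and rose by 0.55 (SE 0.12, adjusted p = 0.00449). Neither gene overlapped between the livers. Scp2 went from 7.59, 7.63 and 7.61 to 7.97, 7.97 and 8.26 and rose by 0.46 (SE 0.13, adjusted p = 0.0188). Leaving out healthy liver anti-VEGF array 1 ended that call (0.45, adjusted p = 0.0554), as did leaving out array 3 (0.46, adjusted p = 0.0525). Hsd17b4, the peroxisomal enzyme that hydrates and dehydrogenates branched and very long chains, read 8.18, 8.28 and 8.42 against 8.42, 8.92 and 8.92. Fatty array 1 overlapped with the healthy arrays, and the difference of 0.46 (SE 0.13, adjusted p = 0.0167) was not called without healthy liver anti-VEGF array 1 (0.40, adjusted p = 0.0638) or fatty liver anti-VEGF array 2 (0.38, adjusted p = 0.0655).

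**Figure D3:**
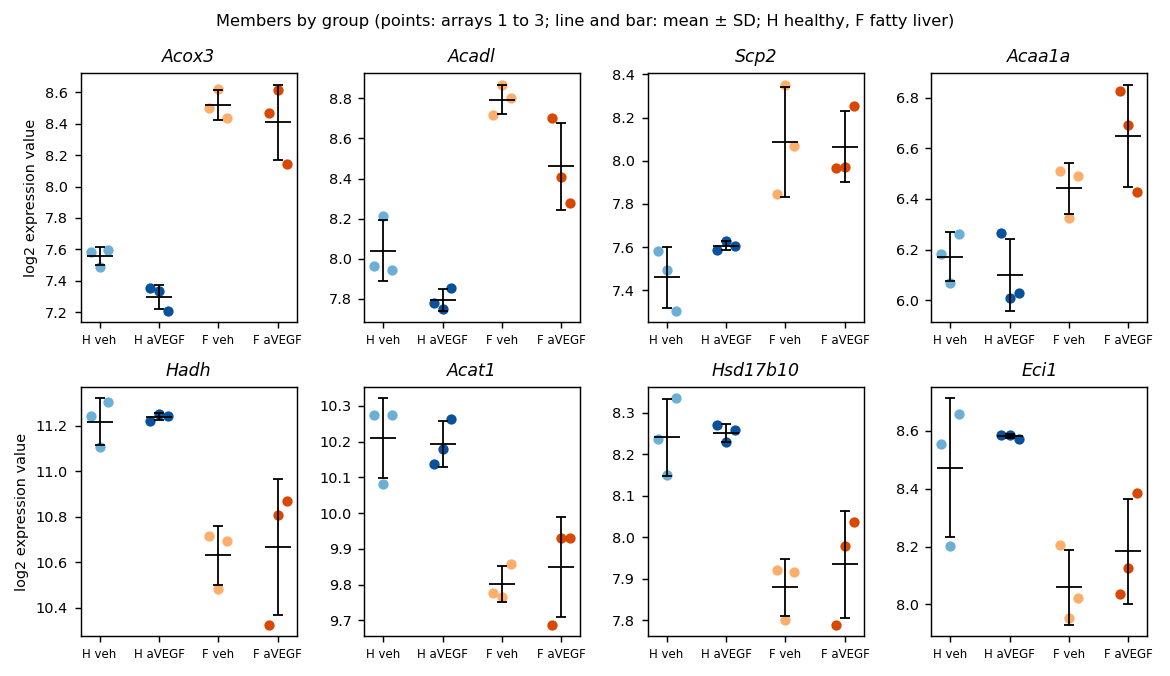
Log2 values of 8 members by group (points are arrays 1 to 3; line and bar are the mean and SD, n = 3; H is healthy and F fatty liver), with an axis of its own per gene that does not start at 0. In the upper row, genes higher in fatty liver, and in Hadh, Acat1 and Hsd17b10 the 6 fatty liver arrays do not overlap with the 6 healthy ones, whereas Eci1 overlaps.

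Of the mitochondrial members, Acadl read 7.78, 7.75 and 7.85 in healthy and 8.70, 8.41 and 8.28 in fatty liver under anti-VEGF and rose by 0.67 (SE 0.12, adjusted p = 0.00145). Acadvl went from 6.79, 6.80 and 6.75 to 7.02, 7.09 and 7.02 and rose by 0.26 (SE 0.07, adjusted p = 0.0128), with an adjusted p of 0.0502 without healthy liver anti-VEGF array 3. Both long-chain dehydrogenases were thus above all healthy arrays on each fatty array. Hadh went from 11.22, 11.25 and 11.24 to 10.33, 10.81 and 10.87, and the lowest of these was array 1 (difference -0.57, SE 0.14, adjusted p = 0.00738). Hsd17b10 went from 8.27, 8.23 and 8.26 to 7.79, 7.98 and 8.04 (difference -0.32, SE 0.09, adjusted p = 0.0136). In both dehydrogenases the healthy arrays were tight and all fatty ones lay below them. Acat1 went from 10.14, 10.18 and 10.26 to 9.69, 9.93 and 9.93 (difference -0.34, SE 0.09, adjusted p = 0.0128), with an adjusted p of 0.0522 without healthy liver anti-VEGF array 3. Eci1 went from 8.59, 8.59 and 8.57 to 8.04, 8.13 and 8.39. Its fall by 0.40 (SE 0.13, adjusted p = 0.0306) was called in 7 of the 12 fits without 1 array. The 5 that lost it were those without any anti-VEGF array other than array 3 of fatty liver, with an adjusted p of 0.0727 to 0.1.

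Acad9 read 8.10, 8.06 and 8.12 in healthy and 7.31, 7.69 and 7.89 in fatty liver, a difference of -0.46 (SE 0.16, adjusted p = 0.0333). It too was called in 7 of 12 fits without 1 array, and lost in the same 5, with an adjusted p of 0.0644 to 0.113. Decr1, which reduces dienoyl-CoA of polyunsaturated chains, went from 6.76, 6.79 and 6.86 to 6.40, 6.62 and 6.67 (difference -0.24, SE 0.09, adjusted p = 0.0456) and was called in 2 of 12 such fits. The 10 others gave an adjusted p of 0.0507 to 0.136. The number called lower was 3 without array 1 or 2 of healthy or of fatty liver under anti-VEGF, and 2 without healthy liver anti-VEGF array 3. Of all tested genes 17.4% to 18.1% were called lower in these fits. With per-array median centring 3 members were called lower and 6 higher, against 20.7% and 18% of all tested genes. Acad9, Eci1 and Decr1 then lost their calls. Hadha, at 9.84, 9.78 and 9.85 against 9.91, 10.02 and 10.20, narrowly missed the threshold (0.22, SE 0.08, adjusted p = 0.0511).

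Over both treatments, the 6 fatty liver arrays lay above the 6 healthy ones for Acadl, Acox3, Acaa1a and Scp2 and below them for Hadh, Hsd17b10 and Acat1. These are 13.3% and 10.0% of the 30 members, against 14.3% and 16.6% of all tested genes. The 17 members called in neither comparison included Acadm, Acads, Hadha, Hadhb, Echs1, Acaa2 and the 3 electron transfer genes.

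No member was called between anti-VEGF and vehicle in either liver. In healthy liver 0 of 30 were called (background 0%), the smallest adjusted p was 0.594 and the differences ran from -0.33 to 0.16. At an unadjusted p of 0.05 Acox3 passed (-0.26, SE 0.12, adjusted p = 0.594), 1 of 30 against 8.41% of all genes, and its 3 treated arrays lay below the 3 vehicle ones. Fatty liver gave 0 calls as well, against 0.00753% of all genes called lower and 0% higher, with differences from -0.41 to 0.26. There Acadl (-0.33, SE 0.12), Acad10 (-0.41, SE 0.16) and Acadvl (0.17, SE 0.07) passed unadjusted, 3 of 30 against 5.86%, each with an adjusted p of 0.795. Acadl was also lower under treatment in healthy liver without overlap (-0.25, SE 0.12, adjusted p = 0.613). The 2 treatment comparisons share no array, but each shares its arrays with the comparisons between livers. Xist was above the limit on 4 arrays, all of them vehicle arrays. Treatment therefore cannot be fully told apart from that split, in these comparisons or in the interaction below.

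**Figure D4:**
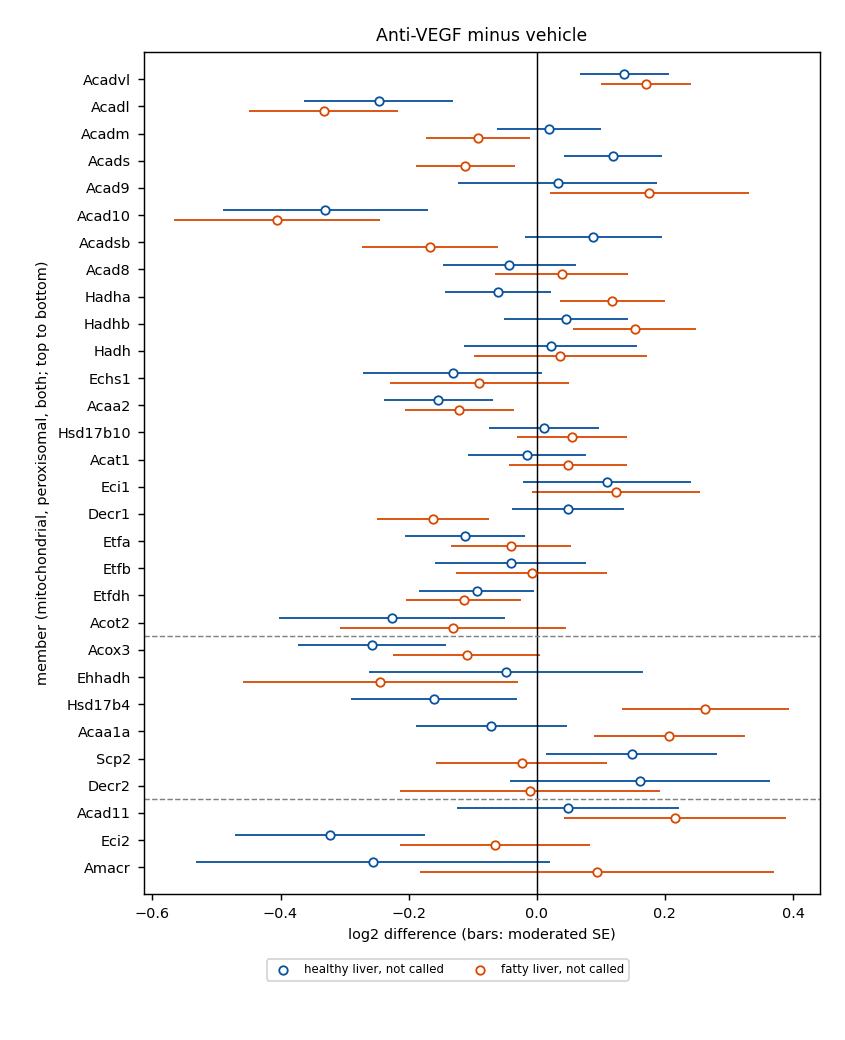
Log2 difference of anti-VEGF minus vehicle for each tested member (points) with its moderated SE (bars), in healthy liver (blue) and fatty liver (orange). All points are open because 0 members were called in limma, and all lie between -0.41 and 0.26.

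An interaction term, for a treatment difference that is unequal between the livers, called 0 of 30 members (background 0%), with a smallest adjusted p of 0.964. Hsd17b4 alone passed at an unadjusted p of 0.05 (adjusted p = 0.964 in limma), with a treatment difference of -0.16 (SE 0.13) in healthy and 0.26 (SE 0.13) in fatty liver and a difference between these of 0.42 (SE 0.18). Of all tested genes 5.1% passed unadjusted. Array weights, which give less weight to arrays that fit their group poorly, did call members in these contrasts, and genes at large with them. In healthy liver they called 4 lower (Acad10, Acaa2, Acox3, Eci2), in fatty liver 4 higher (Acadvl, Etfb, Hsd17b4, Acad11) and 2 lower (Acadl, Acad10), and in the interaction 4 higher (Acox3, Hsd17b4, Acad11, Eci2). The shares of all tested genes called so were 8.11%, 6.92%, 6.98% and 6.6%, and 2 of 30 members is near that share.

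Over the members, the SD of the difference between 2 arrays was 0.231 to 0.393 among the anti-VEGF arrays of fatty liver and at most 0.21 within the other groups; over all tested genes it was largest within healthy liver under vehicle. Array 1 had the lowest value of the 12 for Amacr, at 6.40 against 7.14 and 7.76 on arrays 2 and 3, and for Decr2, at 8.37 against 9.31 and 9.25. It was also lowest for Acot2, a thioesterase that frees fatty acid in mitochondria, at 7.69 against 8.51 and 8.30, and it read Ehhadh at 4.43 against 5.41 and 5.33. The mean of the neutrophil list on that array was 9.91, against 7.41 and 5.95 on the others, and the part of neutrophils in these values was not tested. Without array 1, Decr2 was called higher in fatty liver under anti-VEGF (0.46, adjusted p = 0.00239), and 9 members in all were, among them Ehhadh, whose healthy values are all under the limit and which entered the tests through fatty liver. That fit called 17.3% of all tested genes higher. Decr2 was then also called under vehicle (0.32, adjusted p = 0.00462).

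Genes around the pathway were described by lists of related genes. Of all tested genes 19.2% were called higher and 30.4% lower under vehicle, and 18.2% and 27.6% under anti-VEGF. Among genes that bring fatty acids into mitochondria, 7 of 10 were tested, with 2 higher and 2 lower under vehicle and 2 higher and 0 lower under anti-VEGF. Cpt1a, the carnitine acyltransferase of the outer membrane, rose by 0.49 (SE 0.16) and 0.72 (SE 0.16), and the carrier Slc25a20 by 0.49 (SE 0.18) and 0.51 (SE 0.18). The acyl-CoA synthetase Acsl5 fell by 0.35 (SE 0.09) under vehicle and was uncalled under anti-VEGF (-0.11). Cpt2, the acyltransferase of the inner membrane, fell by 0.36 (SE 0.11, adjusted p = 0.0233) under vehicle, and its difference under anti-VEGF was -0.27 (adjusted p = 0.0721). The genes of peroxisomal import and alpha-oxidation had 9 of 14 tested, with 2 higher in each comparison and 2 and 1 lower. Phyh, which starts alpha-oxidation of branched chains, rose by 1.69 (SE 0.18) and 1.94 (SE 0.18), and the transporter Abcd2 by 1.85 (SE 0.26) and 1.56 (SE 0.26). Acsl6 of the same list fell by 0.93 (SE 0.17) and 0.92 (SE 0.17).

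Peroxisome assembly had 2 of 12 tested genes called higher and 3 lower under vehicle and 1 and 4 under anti-VEGF. The shares of all tested genes were 19.2% and 30.4%, and 18.2% and 27.6%, so calls in both directions do not set this list apart. Pex11a, which promotes peroxisome division, rose by 0.91 (SE 0.18) and 0.95 (SE 0.18), and the import receptor gene Pex5 fell by 0.71 (SE 0.18) and 0.65 (SE 0.18). Pex14 fell by 0.50 (SE 0.10) and 0.51 (SE 0.10). Of the regulator list 5 of 18 genes were tested, with 2 higher and 1 lower in each comparison. Ppara and its coactivator Ppargc1a were below the limit on all 12 arrays, at most 4.27 and 3.53. Ppargc1b of the same list was above it on 6 arrays, at most 5.60, and rose by 0.57 (SE 0.18) and 0.69 (SE 0.18). Pparg rose by 2.46 (SE 0.23) and 3.34 (SE 0.23), and Ppard fell by 0.37 (SE 0.10) and 0.49 (SE 0.10).

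In the list of the citric acid cycle and mitochondrial mass 11 of 19 genes were called lower and 0 higher under vehicle, with a median of -0.26, and 8 lower and 3 higher under anti-VEGF, with a median of -0.23. All tested genes had 30.4% and 27.6% called lower and medians of -0.12 and -0.13. Idh3a, a subunit of isocitrate dehydrogenase, fell by 0.52 (SE 0.11) under vehicle, and Tfam, which maintains mitochondrial DNA, by 0.73 (SE 0.15). Under anti-VEGF neither was called in limma (-0.25, adjusted p = 0.084, and -0.35, adjusted p = 0.08). The genes with the smallest p there were Timm23, which fell by 0.40 (SE 0.08), and Ogdh, which rose by 0.36 (SE 0.07). Branched-chain amino acid breakdown had 7 of 15 genes lower and 0 higher under vehicle and 6 and 0 under anti-VEGF. Ivd, the isovaleryl-CoA dehydrogenase of leucine breakdown, fell by 0.63 in each (SE 0.16), and Dld by 0.49 (SE 0.12) and 0.54 (SE 0.12). Whether these lists differ from the members was not tested.

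Markers of several cell types moved with the liver in the same comparisons, in which 19.2% and 18.2% of all tested genes were called higher. The shares called lower were 30.4% and 27.6%. Of the 12 tested macrophage genes 11 were higher in fatty liver in each comparison, and of the T and NK cell list 12 of 12 under vehicle and 9 of 12 under anti-VEGF. Of 6 tested epithelial markers Cdh1 rose by 2.37 and 1.61, while Krt8 fell by 0.84 and 0.87 and Krt18 by 0.88 and 1.28. The fibroblast list had 3 of 8 tested genes called lower and 0 higher in each, Pdgfra, Pdgfrb and Acta2. Its median difference was -1.06 under vehicle and 0.40 under anti-VEGF. Col1a1, Dcn, Col1a2, Lum and Col3a1 were uncalled in both comparisons. All of these were below 0 under vehicle and above 0 under anti-VEGF, there from 0.24 (SE 0.44) in Col3a1 to 1.61 (SE 1.09) in Col1a1. Hepatocyte markers had 0 of 4 tested genes higher in either, with 0 lower under vehicle and 2, Apoa1 and Hnf4a, lower under anti-VEGF. Vehicle array 2 of healthy liver had a macrophage list mean of 10.39, against 9.48 and 9.44 on arrays 1 and 3. It departed further in an endothelial list of 7 tested genes (9.61 against 6.26 and 6.33) and in the fibroblast list (10.15 against 8.25 and 8.16). Its Acox3 value of 7.49 was below their 7.58 and 7.59, while its Acadl value of 8.21 was above their 7.96 and 7.94. Anti-VEGF array 3 of fatty liver had a T and NK cell list mean of 5.65, within the healthy range of 5.13 to 5.91, and its Acox3 value of 8.14 and Acadl value of 8.28 were the lowest of the fatty liver arrays but above all healthy ones. The part of these cell types in the members' differences was not tested. Without these 2 arrays, 5 members were called higher and 9 lower under vehicle and 8 and 8 under anti-VEGF, against 21.5% and 39.6%, and 21.3% and 39.3%, of all tested genes.

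**Figure D5:**
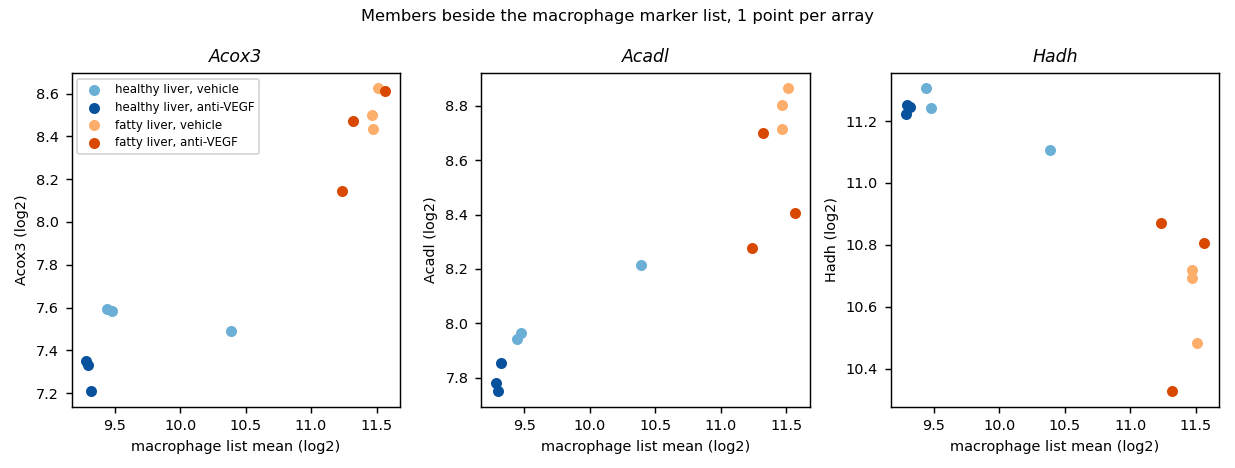
Log2 values of Acox3, Acadl and Hadh (vertical) against the mean log2 value of 12 macrophage genes (horizontal), 1 point per array, coloured by group; axes do not start at 0. Vehicle array 2 of healthy liver stands at 10.39 on the horizontal axis, with Acox3 at 7.49 and Acadl at 8.21. Its endothelial and fibroblast list means were also the highest of all arrays.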

How the data were processed

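Total RNA of tumour tissue was amplified, labelled with biotin and hybridised to single-colour whole-transcript arrays, per the labels' protocols. Affymetrix Expression Console is named in the submitters' processing notes; the sources used here do not give its version, algorithm or build. The authors deposited log2 expression values (the log2 scale was read from their range, and centring is not stated; array medians 4.88 to 4.99), used without further normalization. Genes were named from the platform annotation, with 1 symbol for 23521 of 41345 rows and the highest mean row per gene. All 12 arrays entered 1 limma fit (version 3.58.1, R 4.3.3; lmFit, eBayes, 4 group means, 8 residual degrees of freedom), with Benjamini-Hochberg adjustment over 13286 genes, and errors are moderated SE. The members, lists and tests were chosen with earlier results of these data known; the estrogen-related, NRF1, GC, CCAAT and E-box motifs were added after values were seen. Values on each array were given for called members, at most 5 rises and 5 falls by size in a contrast. Other members were added where a sentence turns on them. Genes named from the related pathway lists were among the 3 with the smallest p in at least 1 comparison. Not all such genes were named. Ppara, Ppargc1a, Cpt1a and Cpt2 were named whatever their values.

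Same-numbered vehicle arrays of the 2 livers deviated together (correlations 0.536, 0.701 and 0.549). Vehicle arrays 1 and 3 are nearly alike in each liver, so these values are not independent and do not show a pairing by number. The labels state no pairing. In the other comparisons at least 1 pair was under 0.1. The number of arrays limits the precision. Promoter windows were matched by symbol for 27 of 33 members, and protein sequences were not used here.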

Additional observations from a re-analysis of the deposited data

How the results depend on the processing

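No called difference of a member changed direction in any of the 23 alternative settings. Of 506 such values 432 stayed on the same side of the threshold and 74 lost the call, and Acox3 kept its call throughout in both comparisons between livers. Under vehicle, the number of members called higher (5) was 9 with array weights, 1 with nearly alike arrays averaged and 2 without the vehicle arrays high in Xist, against 24.7%, 4.47% and 4.74% of all tested genes. The number called lower (5) was 14, 0 and 0 in these settings and 9 without the 2 arrays between the livers, a setting chosen after seeing the data (all genes 46.4%, 0.956%, 3.21% and 39.6%). Under anti-VEGF, 12 (array weights) and 1 (averaged) were called higher, and 3 (median centring) and 0 (averaged) lower (all genes 27.6% and 3.67% higher, 20.7% and 0.173% lower). For treatment, array weights called 4 lower in healthy liver, 4 higher and 2 lower in fatty liver and 4 higher in the interaction (all genes 8.11%, 6.92%, 6.98% and 6.6%). Leaving out 1 array gave 4 to 7 higher and 4 to 8 lower under vehicle (all genes 15.5% to 20.7% and 19.4% to 35.3%). Under anti-VEGF it gave 4 to 9 higher and 2 to 7 lower (all genes 14.7% to 19.9% and 17.4% to 36.3%). In the treatment contrasts it gave 0 members (all genes at most 0.248%).

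The median of the peroxisomal members under vehicle was 0.30 without a filter, since 2 genes under the limit enter. Without the vehicle arrays high in Xist, the treatment median was 0.059 for mitochondrial members in healthy liver and -0.13 for peroxisomal members in fatty liver. For mitochondrial members in fatty liver it ran from -0.13 to 0.019 without 1 array. With the replicate block, 5 and 5 members were called under vehicle and 6 and 5 under anti-VEGF, where the adjusted p of Decr1 was 0.0645; the block changed no other call. The causes were not tested. Values near or under the limit restrict what can be said of Ehhadh, Acad10, Hadhb, Acox2 and Acaa1b.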
